A study of Mus musculus with 2 samples.

Results

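The genes described here are the interleukins and their receptors, 84 protein-coding genes of the 55536 in the table. They were selected as every protein-coding gene of GENCODE M21 whose symbol starts with Il and a digit, a rule that uses no expression value but was set with earlier results of these data known. Of the 84, 36 encode ligands, 40 receptor chains, 3 decoys or soluble receptors, and 5 other proteins such as antagonists. The tumors came from MMTV-PyVT mice, in which the mouse mammary tumor virus promoter drives the polyoma virus middle T antigen in mammary epithelium, so all samples carry that oncogene. One mouse group received cyanidin-3-glucoside (C3G), an anthocyanin plant pigment, and the control group received dimethyl sulfoxide (DMSO), the solvent. Treatment started at the stage of ductal hyperplasia and tumors were taken at a fixed burden; strain background, age, dose and duration are not given in the sources used here. RNA of 1 mammary tumor library per group was sequenced, so no value below has a replicate check and no p-value was computed. Treatment cannot be told apart from differences between individual tumors. Whether a library was made from 1 animal or a pool is not given in the sources used here. The terms DMSO tumor and C3G tumor below name the libraries.

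Interleukins are small secreted proteins by which immune, stromal and epithelial cells signal to each other. Most receptors are built from a private chain and a shared chain, and the shared chain sorts them into families. Interleukin-1 type receptors signal through MyD88 to NF-kB, most others through JAK kinases to STAT factors, and the interleukin-17 receptors through the adaptor Act1. In mammary tumors interleukins are known from macrophages, neutrophils, lymphocytes, fibroblasts and the tumor epithelium itself.

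The libraries held 12192275 (DMSO) and 16081110 (C3G) gene-assigned reads, recovered from the deposited TPM values (transcript abundance, a level per gene length and library total). Luminal epithelial markers fitted the tissue label, with Krt8, a luminal keratin, at 1890 and 1420 TPM in the DMSO and C3G tumors. Ribosomal RNA loci of the nucleus took 0.308% and 0.654% of reads. Intervals in parentheses after a fold are 95% intervals for counting error only. In whole tumor pieces, fewer cells of a type and less RNA per cell cannot be told apart.

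The promoters of 3 genes are shown first because the genes, Il1b, Il6 and Il20rb, differed most upward among members with at least 50 reads and an entry in the promoter table. Il1b encodes interleukin-1 beta, Il6 interleukin-6, and Il20rb the shared beta chain of the receptors for interleukins 19, 20 and 24. Each line gives the 250 bases before the RefSeq transcript start on the gene's own strand (GRCm38.p6, the mm10 assembly), at chr2:129371140-129371389 (minus strand), chr5:30012864-30013113 (plus strand) and chr9:100486474-100486723 (minus strand). Capitals mark motif matches.
Il1b promoter: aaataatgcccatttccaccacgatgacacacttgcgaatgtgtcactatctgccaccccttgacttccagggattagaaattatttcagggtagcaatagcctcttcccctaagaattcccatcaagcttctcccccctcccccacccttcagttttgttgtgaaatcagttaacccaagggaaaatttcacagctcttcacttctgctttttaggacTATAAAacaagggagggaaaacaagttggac
Il6 promoter: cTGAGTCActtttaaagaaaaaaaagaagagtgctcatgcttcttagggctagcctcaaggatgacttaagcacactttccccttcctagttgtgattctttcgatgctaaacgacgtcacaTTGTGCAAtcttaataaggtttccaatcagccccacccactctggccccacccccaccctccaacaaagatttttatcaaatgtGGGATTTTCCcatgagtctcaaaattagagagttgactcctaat
Il20rb promoter: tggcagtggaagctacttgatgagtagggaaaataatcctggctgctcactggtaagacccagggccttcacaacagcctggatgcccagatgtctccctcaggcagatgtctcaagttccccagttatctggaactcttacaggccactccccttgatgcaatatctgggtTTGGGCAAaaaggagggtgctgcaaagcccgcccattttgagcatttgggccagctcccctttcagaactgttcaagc
Both strands were searched for 5 motifs, the first being the NF-kB consensus, given by name. For AP-1 the letters were TGANTCA. For C/EBP, a factor family of inflammatory and acute phase genes, the letters were TTGCNNAA. The STAT motif, bound by the factors downstream of JAK kinases, was TTCNNNGAA. The TATA box of core promoters was TATAAA. The Il1b window held a TATA box from 31 to 26 bases before the start. The Il6 window held GGGATTTTCC, a match to the NF-kB consensus, at 44 to 35 bases before the start, an AP-1 match at 249 to 243 and a C/EBP match at 128 to 121. The Il20rb window held 1 C/EBP match at 78 to 71, and its RefSeq start lay 315 bases from the GENCODE gene start. Among all 32851 promoter windows of this length, 7.25% held the NF-kB consensus, 6.75% the AP-1 motif, 9.56% the C/EBP motif, 7.02% the STAT motif and 12.4% the TATA box. The table had 80 windows for 65 of the 82 member symbols, and 6, 14, 14, 8 and 13 of these held the same motifs in that order, 17.5% for both the AP-1 and the C/EBP motif. Il18r1, the receptor chain with the lowest log2 ratio, has 3 windows, of which the one at its GENCODE start held none of the 5 motifs and another held a STAT match. A match describes letters only and is neither a binding site nor a cause.

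Most interleukin genes were at low levels in these tumors, and receptor chains were more abundant than ligands. In each library 63 of the 84 genes had at least 1 read, 47 reached 1 TPM in at least 1 tumor, and 27 reached 5 TPM. The summed level of all members was 630 TPM under DMSO and 627 TPM under C3G. Receptor chains made up 66.8% of that sum with DMSO and 72.6% with C3G, and ligands 28.1% and 22.4%. The 10 most abundant genes took 66.1% and 65.9% of it. In the DMSO tumor Il11ra1 (58.3 TPM), Il17re (53.5 TPM) and Il17b (50.7 TPM) led, and in the C3G tumor Il20rb (76.2 TPM), Il17re (53.6 TPM) and Il15ra (49.4 TPM).

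**Figure D1:**
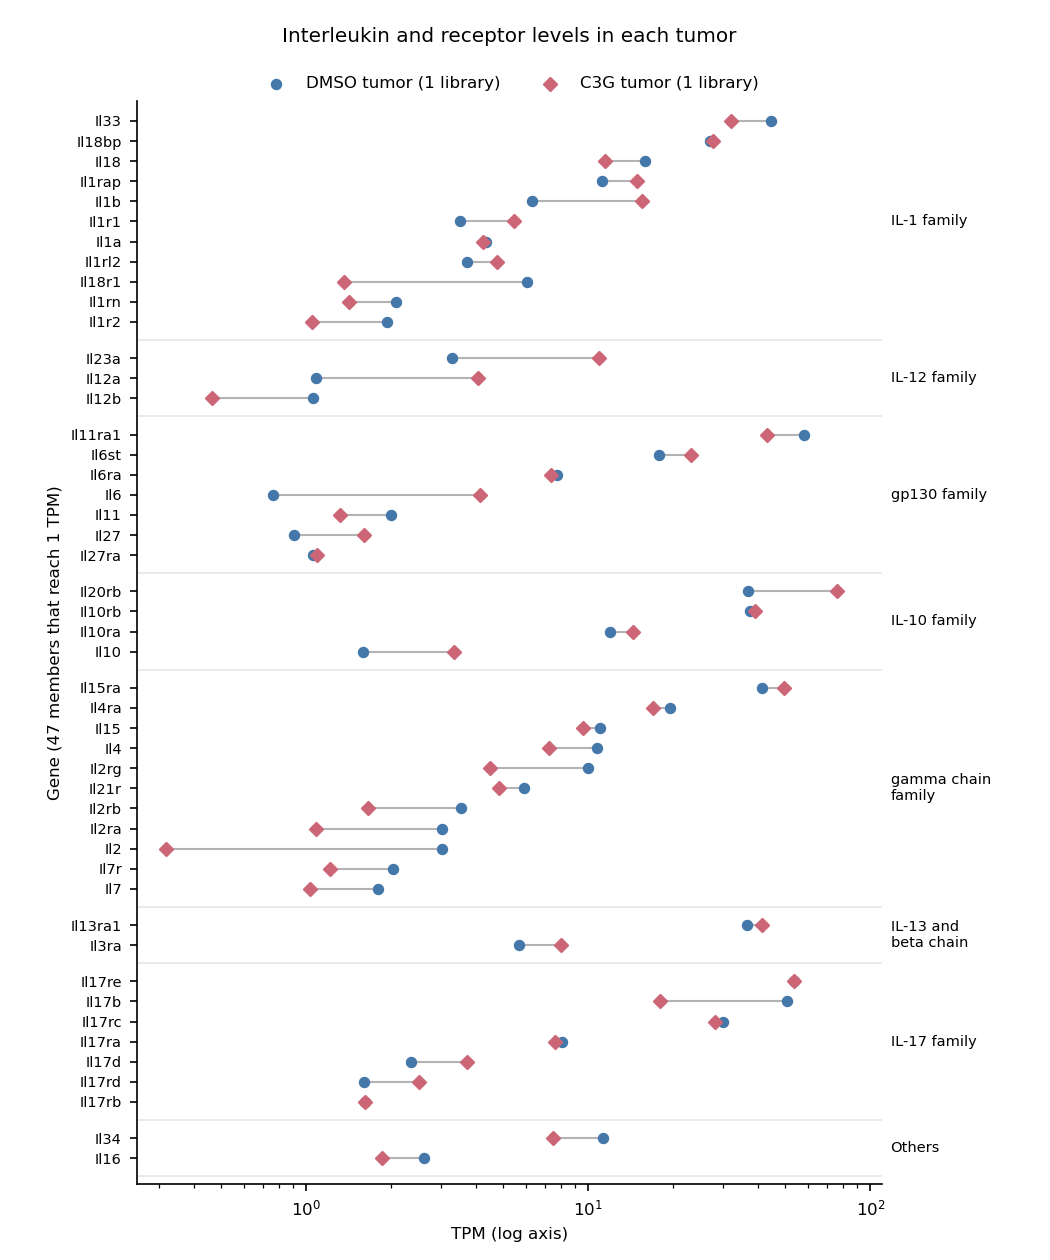
Level of each of the 47 interleukin and receptor genes that reached 1 TPM, in TPM on a log axis, by family; circles are the DMSO library, diamonds the C3G library. Il1b, Il6, Il12a, Il23a and Il20rb lie to the right in the C3G tumor, and Il2, Il18r1 and Il17b to the left.

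Between the tumors the members went both ways. A call by size required 5 TPM or more in at least 1 tumor and a log2((C3G TPM + 1)/(DMSO TPM + 1)), the log2 ratio below, of at least 1 (higher) or at most -1 (lower). Of 27 members that reached 5 TPM, 3 were higher with C3G (Il1b, Il23a and Il20rb), where 3.10% of 12780 genes were, or 1.80% of 11005 protein-coding genes. The members called lower were 2 (Il17b and Il18r1), where 4.30% of all genes and 1.64% of protein-coding genes were. When log2 ratios were centred on genes with a mean of at least 10 TPM, which lowered all of them by 0.12, the table as a whole had 298 higher and 663 lower genes in place of 396 and 550, and members called were Il1b and Il23a on the higher side and Il17b, Il18r1 and Il2rg on the lower.

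Among the 46 members with a mean of at least 1 TPM, 22 had log2 ratios above 0 and 24 below, with a median of -0.04. Of 17468 genes at that minimum, 10288 were above and 7180 below 0, with a median of 0.10. Ligands had a median log2 ratio of -0.26 (7 of 18 above 0) and receptor chains 0.00 (14 of 25 above 0), the latter -0.12 after centring. Ligand genes are shorter, with a median exon length of 1933 bases against 4471 for receptor chains, and over the whole table the shortest eighth of genes had a median log2 ratio of -0.20 and the longest 0.21. With that length trend removed, the medians were -0.25 for ligands and -0.13 for receptor chains.

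**Figure D2:**
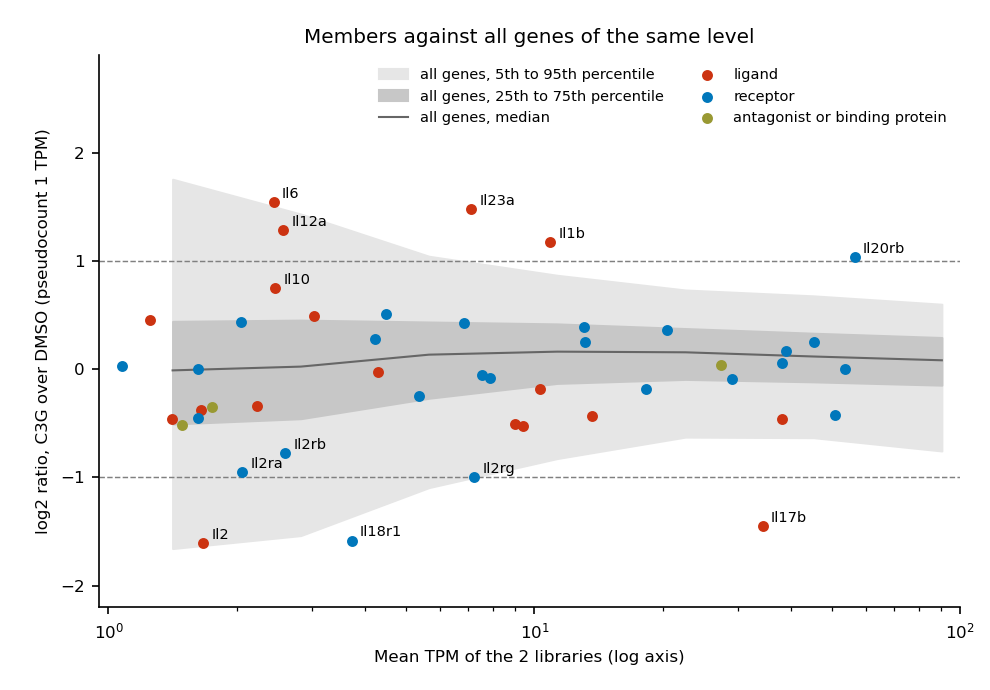
Log2 ratio (C3G over DMSO) against mean TPM on a log axis for the 46 members with a mean of at least 1 TPM, over grey bands that give the 5th to 95th and 25th to 75th percentiles of all genes at that level; dashed lines mark log2 ratios of -1 and 1. Il1b, Il6, Il20rb and Il23a lie above the 95th percentile of their level class, Il17b and Il18r1 below the 5th, and 40 members between.

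Among the interleukin-1 ligands, the inflammatory cytokine Il1b was higher in the C3G tumor while its relatives were level or lower. Il1b (ENSMUSG00000027398, mm10 chromosome 2, 129364570 to 129371139, minus strand) stood at 6.29 TPM under DMSO and 15.5 TPM under C3G, from 52 and 162 reads, a 2.46-fold difference (1.79 to 3.43). With a pseudocount of 5 TPM its log2 ratio was 0.86 in place of 1.18 and it was no longer called. Il1a, which signals through the same receptor and lies beside Il1b in a stretch of 71.5 kb, stood at 4.32 and 4.24 TPM. Il1rn, the antagonist of that receptor, stood at 2.08 and 1.41 TPM, so that the level of Il1b was 3.02 times that of Il1rn in the DMSO tumor and 10.9 times in the C3G tumor. Il33, an alarmin stored in the nuclei of epithelial and stromal cells, was the most abundant ligand of the family, at 44.4 TPM under DMSO and 31.97 TPM under C3G (1.39-fold lower, 1.23 to 1.57). Il18, which drives interferon gamma production, stood at 15.9 and 11.5 TPM, a difference within counting error (0.975 to 1.97). Its soluble inhibitor Il18bp stood at 27.0 and 27.8 TPM. The interleukin-36 ligands were nearly absent: Il1f6 and Il1f9 had no read, and Il1f8 and the related Il1f10 had 1 read each, in the C3G library.

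The receptors of this family did not move as 1 group. Il1r1, the signalling receptor of interleukin-1, stood at 3.52 TPM under DMSO and 5.43 TPM under C3G (1.55-fold higher, 1.20 to 1.99), and Il1rap, the accessory chain shared by several of these receptors, at 11.2 and 14.9 TPM (1.33-fold higher, 1.20 to 1.48). Il1r2, a decoy that binds interleukin-1 without signalling, stood at 1.93 and 1.05 TPM from 16 and 11 reads. The interleukin-36 receptor Il1rl2 stood at 3.72 and 4.73 TPM, and Il1rl1, the receptor of Il33, at 0.937 and 0.739 TPM. Il18r1, the ligand-binding chain of the interleukin-18 receptor, went the other way. It stood at 6.08 TPM under DMSO and 1.36 TPM under C3G, from 127 and 36 reads, 4.47-fold lower (3.07 to 6.67), although with a pseudocount of 5 TPM its log2 ratio was -0.80 and not called. Its partner chain Il18rap stood at 0.581 and 0.512 TPM.

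These receptor genes are neighbours. Il1r2, Il1r1, Il1rl2, Il1rl1, Il18r1 and Il18rap lie in that order within 478 kb of chromosome 1 (40074079 to 40551705), and their summed level was 16.8 TPM under DMSO and 13.8 TPM under C3G. Within this stretch Il1r1 and Il18r1 differed between the tumors in opposite directions.

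In the interleukin-12 family, whose cytokines pair an alpha chain with a beta chain, both measured alpha chains were higher in the C3G tumor. Il23a, the alpha chain of interleukin-23 (chromosome 10, 128296139 to 128298752), stood at 3.28 TPM under DMSO and 10.9 TPM under C3G, from 32 and 135 reads, 3.33-fold higher (2.25 to 5.06). With a pseudocount of 5 TPM its log2 ratio was 0.94 and not called. Il12a, the alpha chain of interleukin-12, stood at 1.08 and 4.07 TPM, from 8 and 38 reads, under the 5 TPM that a call needs. Il12b, the beta chain that both cytokines need for secretion as a pair, did not go with them, at 1.06 and 0.463 TPM from 9 and 5 reads. The receptor chains were at or near 0: Il23r had no read in either library, Il12rb1 had 6 and 4 reads, and Il12rb2 had 5 and 8.

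Il6, the ligand of the gp130 family that drives the acute phase response, had the highest log2 ratio of all members at 1.54. It stood at 0.760 TPM under DMSO and 4.12 TPM under C3G, from 8 and 55 reads, and so missed the 5 TPM minimum. Its fold, given although the rule for named genes did not ask for it, was 5.42 (2.57 to 13.2). Its private receptor chain Il6ra stood at 7.71 and 7.37 TPM, and Il6st, the gp130 chain that most receptors of the family share, at 17.8 and 23.2 TPM (1.30-fold higher, 1.20 to 1.42). Il11, which uses the same shared chain, stood at 2.00 and 1.31 TPM from 18 and 15 reads, and Il27 at 0.904 and 1.60 TPM from 4 and 9 reads. Il11ra1, the interleukin-11 receptor, was the most abundant member in the DMSO tumor, at 58.3 TPM, and stood at 43.2 TPM with C3G (1.35-fold lower, 1.24 to 1.47). Its copy Il11ra2, present under 3 identifiers, had no read under any of them. Of 1250 stretches of 50 bases in the transcript of a single Il11ra2 identifier, 741 also occur in Il11ra1. The other identifiers were not compared. Reads from the stretches shared with Il11ra1 cannot be assigned to either gene with certainty.

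The interleukin-10 family had 4 measured members, all with log2 ratios above 0, although after centring and with the length trend removed it was 3 of 4. Il20rb (ENSMUSG00000044244, chromosome 9, 100457719 to 100486788, minus strand) was the most abundant of them in the C3G tumor, and close to Il10rb in the DMSO tumor. It stood at 36.7 TPM under DMSO and 76.2 TPM under C3G, from 670 and 1760 reads, 2.07-fold higher (1.90 to 2.27). Its log2 ratio of 1.03 lay just above the threshold, and it was 0.91 after centring, 0.88 with the length trend removed and 0.96 with a pseudocount of 5 TPM. The chains that pair with it were barely detected, Il20ra with 8 and 5 reads and Il22ra1 with 1 read, in the C3G library. Its ligands were as scarce: Il19 and Il20 had no read, and Il24 had 2 and 4. Il10, a cytokine that restrains macrophages, stood at 1.58 and 3.33 TPM from 9 and 24 reads, a difference within counting error. Its receptor chains Il10ra (11.9 and 14.4 TPM) and Il10rb (37.4 and 38.9 TPM) differed by less than counting error as well.

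**Figure D3:**
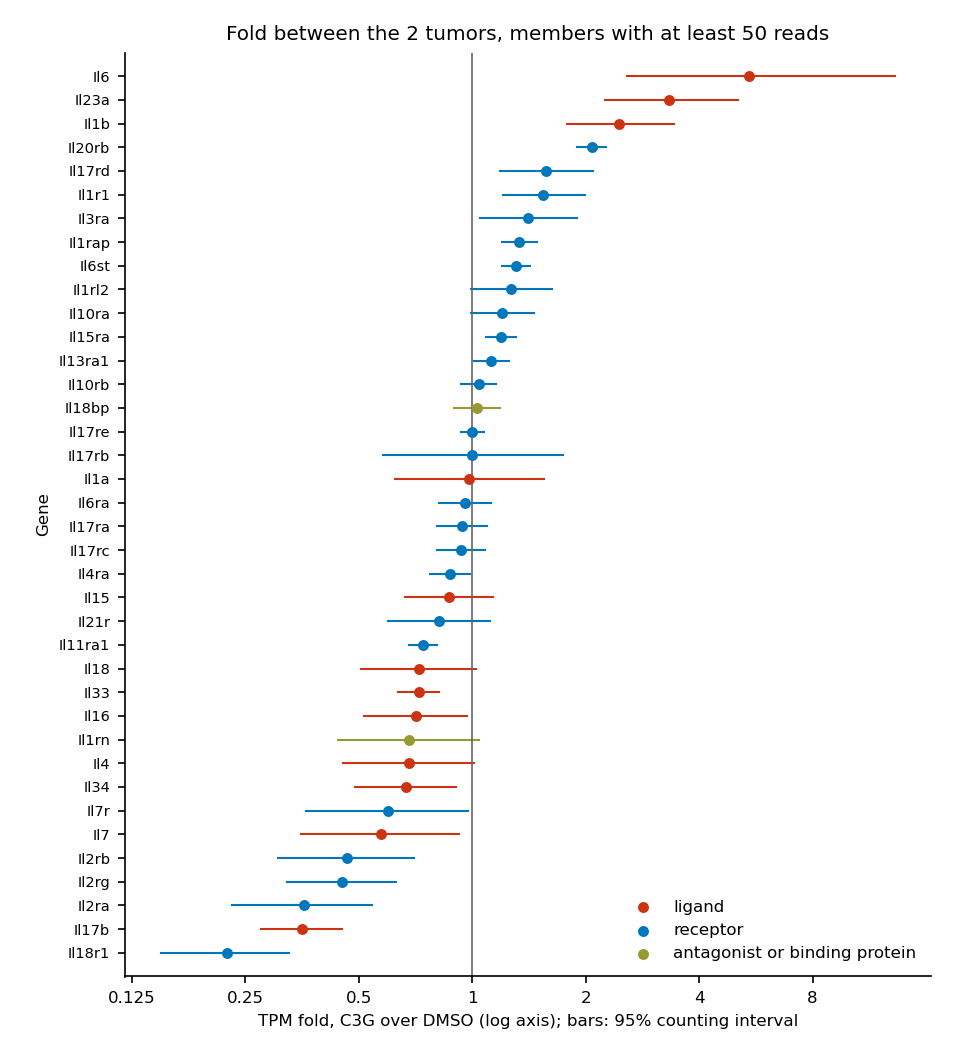
TPM fold (C3G over DMSO, log axis) of the 38 members with at least 50 reads over both libraries, with 95% counting intervals as bars, coloured by role. The interval lies above 1 for 11 genes, below 1 for 12 and holds 1 for 15. Both roles stand at both ends. The ligands Il6, Il23a and Il1b and the receptor chain Il20rb stand at the top. The ligand Il17b and chains of the interleukin-2 and interleukin-18 receptors stand near the bottom.

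Genes of the common gamma chain family, whose receptors share the Il2rg chain and serve lymphocytes above all, were lower in the C3G tumor more often than not. Of 14 genes 11 were measured, 10 of these had log2 ratios below 0, and the median was -0.46; none was called by size. All 3 chains of the interleukin-2 receptor were lower. Il2rg stood at 9.95 TPM under DMSO and 4.50 TPM under C3G, from 103 and 59 reads, 2.21-fold lower (1.59 to 3.10), just outside the threshold at -0.99. It was called under 4 alternatives, the lowest value being -1.13 with a pseudocount of 0.1, and 30.5% of its exon bases are shared with the overlapping locus Gm20489. Il2ra, which makes the receptor high-affinity, stood at 3.03 and 1.08 TPM from 75 and 34 reads, and Il2rb at 3.55 and 1.66 TPM from 66 and 39 reads. The ligand Il2, the T cell growth factor, stood at 3.02 TPM under DMSO and 0.318 TPM under C3G, on only 15 and 2 reads.

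The other cytokines of this family differed less. Il7, which lymphocytes need to survive, stood at 1.79 and 1.03 TPM, and its receptor Il7r at 2.03 and 1.21 TPM. Il4, the cytokine of type 2 immunity, stood at 10.7 TPM under DMSO and 7.27 TPM under C3G, from 57 and 49 reads, within counting error (0.989 to 2.21). Il4ra stood at 19.5 and 17.01 TPM, and Il21r at 5.90 and 4.82 TPM, while the ligand Il21 had no read. Il15, which supports natural killer cells, stood at 11.0 and 9.58 TPM. Il15ra, which presents Il15 on the cell surface, was the exception to the direction, at 41.5 TPM under DMSO and 49.4 TPM under C3G (1.19-fold higher, 1.09 to 1.30). Il9 and its receptor Il9r had no read.

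Markers of T cells and natural killer cells were lower in the C3G tumor as well. All 11 measured T cell markers, of 14 listed, were below 0, with a summed level of 83.2 TPM under DMSO and 30.9 TPM under C3G and no marker at 0 in either. The 6 measured natural killer and cytotoxic markers, of 10 listed, were below 0 too, with a summed level over the list of 60.3 and 25.8 TPM. Xcl1, Nkg7 and Gzma were lower by size, while the intervals of Klrd1, Gzmb and Ncr1 held 1. The interval of the T cell marker Lck, at 7.24 TPM under DMSO and 5.34 TPM under C3G, held 1 too. The part of these lymphocytes in the values of Il2, the interleukin-2 receptor chains and Il18r1 was not tested.

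In the interleukin-13 and common beta chain group 2 receptor chains reached 5 TPM, while every ligand stayed under 1 TPM. Il13ra1, which pairs with Il4ra to bind Il13 and Il4, stood at 36.6 TPM under DMSO and 41.2 TPM under C3G (1.13-fold higher, 1.01 to 1.25). Il3ra, the private chain of the interleukin-3 receptor, stood at 5.67 and 7.97 TPM (1.41-fold higher, 1.05 to 1.90). Il3 and the decoy Il13ra2 had no read, Il13 had 1 and 4 reads, Il5 had 5 and 1, and its receptor chain Il5ra had 1 and 0. Il13, Il5 and Il4 lie within 122 kb of chromosome 11, and of the 3 only Il4 reached 1 TPM.

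In the interleukin-17 family the ligand Il17b was lower in the C3G tumor, 4 of the 5 receptor chains differed by less than counting error, and Il17rd was higher. Il17b, an epithelial member of the family, stood at 50.7 TPM under DMSO and 17.96 TPM under C3G, from 214 and 96 reads, 2.83-fold lower (2.21 to 3.63). It was called lower under each of the 8 alternatives. An antisense locus, Gm38165, shares 14.5% of its exon bases, and reads of the strands cannot be told apart. Il17rb, the receptor of Il17b, stood at 1.62 TPM in both tumors. Il17re, which binds interleukin-17C, was the most abundant receptor chain of the family, at 53.5 and 53.6 TPM from 1362 and 1729 reads, with a fold of 1.00 (0.932 to 1.08). Il17ra, the chain common to these receptors, stood at 8.09 and 7.61 TPM, and Il17rc at 30.1 and 28.1 TPM. Il17rd stood at 1.60 and 2.50 TPM, from 76 and 151 reads, with an interval of the fold wholly above 1 (1.18 to 2.09). The ligand Il17d stood at 2.35 and 3.71 TPM, within counting error. The T cell cytokines Il17a and Il17f had 1 read each, in the C3G and the DMSO library, and Il17c and Il25 had 3 reads in 1 library and none in the other.

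Il34, a ligand of the macrophage growth factor receptor Csf1r, stood at 11.3 TPM under DMSO and 7.52 TPM under C3G (1.50-fold lower, 1.11 to 2.04). Il16, which attracts cells through CD4, stood at 2.61 and 1.85 TPM, and 17.4% of its exon bases are shared with antisense genes. Il4i1, an amino acid oxidase that carries the prefix by name only, had 8 reads in each library, and 86.3% of its exon bases are shared with other genes.

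In all, 16 members had no read in either library. For genes of their lengths a count of 0 allows a level of up to 0.132 to 1.29 TPM in the DMSO library and 0.104 to 1.02 TPM in the C3G library, at 3 reads a gene. For Il11ra2 this bound may not hold, because reads from stretches shared with Il11ra1 cannot be assigned with certainty. Besides those given above, the members with no read were Il1rapl2, Il22 and Il31. Another 21 had reads but stayed under 1 TPM in both tumors.

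Genes that act before or after these receptors were read from lists from textbook knowledge, none of which holds a member. Of 11 measured genes of interleukin-1 maturation, 4 were above and 7 below 0 and none was called. Casp4, an inflammatory caspase, stood at 28.5 TPM under DMSO and 17.7 TPM under C3G, and Pycard, the adaptor of inflammasomes, at 24.5 and 32.2 TPM. Of 15 genes between the interleukin-1 receptor and NF-kB, 11 were above 0 with a median of 0.13, near the 0.10 of all genes, and none was called; with the length trend removed 7 were above 0, with a median of -0.06. Of 14 JAK, STAT and SOCS genes 9 were above 0, with a median of 0.15 and none called, but 6 and -0.05 with the length trend removed; Stat2, a transducer of interferon signals, stood at 80.7 and 51.3 TPM.

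Response genes differed by pathway and within pathways. Of 16 measured genes known to respond to interleukin-1 and interleukin-17, 9 were above 0, with a median of 0.35. Over all genes 10288 of 17468 were above 0, with a median of 0.10. Of the 14 list genes that reached 5 TPM, 3 were higher by size, where 3.10% of all genes were. Saa3, a serum amyloid gene, stood at 6.82 TPM under DMSO and 16.2 TPM under C3G (2.38-fold higher, 1.83 to 3.12), beside the chemokines Cxcl2 (1.56 and 7.92 TPM) and Ccl2 (11.8 and 25.7 TPM). Tnfaip3, an inhibitor of NF-kB, stood at 5.84 and 9.85 TPM. Saa1 (315 and 499 TPM), Saa2 (207 and 267 TPM) and Zc3h12a (10.9 and 14.0 TPM) were not called but were higher, with intervals wholly above 1. Other genes of the list were lower, with intervals wholly below 1. Lcn2, which encodes lipocalin 2, stood at 4863 and 4051 TPM, and Nfkbia, another NF-kB inhibitor, at 229 and 182 TPM. Nfkbiz stood at 103.7 and 80.8 TPM, Mmp3 at 63.4 and 49.8 TPM and the adhesion molecule Icam1 at 9.998 and 6.30 TPM. The summed level of the list, most of it Lcn2, was 5871 TPM under DMSO and 5256 TPM under C3G. Of 11 measured genes of the interleukin-6 and STAT3 response, 4 were above and 7 below 0, with a median of -0.24. All 11 reached 5 TPM. By size 2 were higher, the acute phase genes Hp and Orm1, and 2 lower, the fibrinogen chains Fgb and Fgg. Over all genes 3.10% were higher and 4.30% lower by size. Hp stood at 52.6 TPM under DMSO and 152 TPM under C3G (2.89-fold higher, 2.57 to 3.25), and Fgg at 32.2 and 6.09 TPM (5.29-fold lower, 4.06 to 6.96). Of 10 measured genes of the interleukin-4 and interleukin-13 response 8 were below 0, with a median of -0.48. Retnla, made by macrophages under these cytokines, stood at 237 and 117 TPM (2.02-fold lower, 1.78 to 2.30), Mgl2 at 10.8 and 6.34 TPM and Alox15 at 6.58 and 3.41 TPM. The 2 genes above 0 were Arg1, at 143 and 181 TPM (1.27-fold higher, 1.18 to 1.36), and Egr2, at 24.0 TPM in both tumors.

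**Figure D4:**
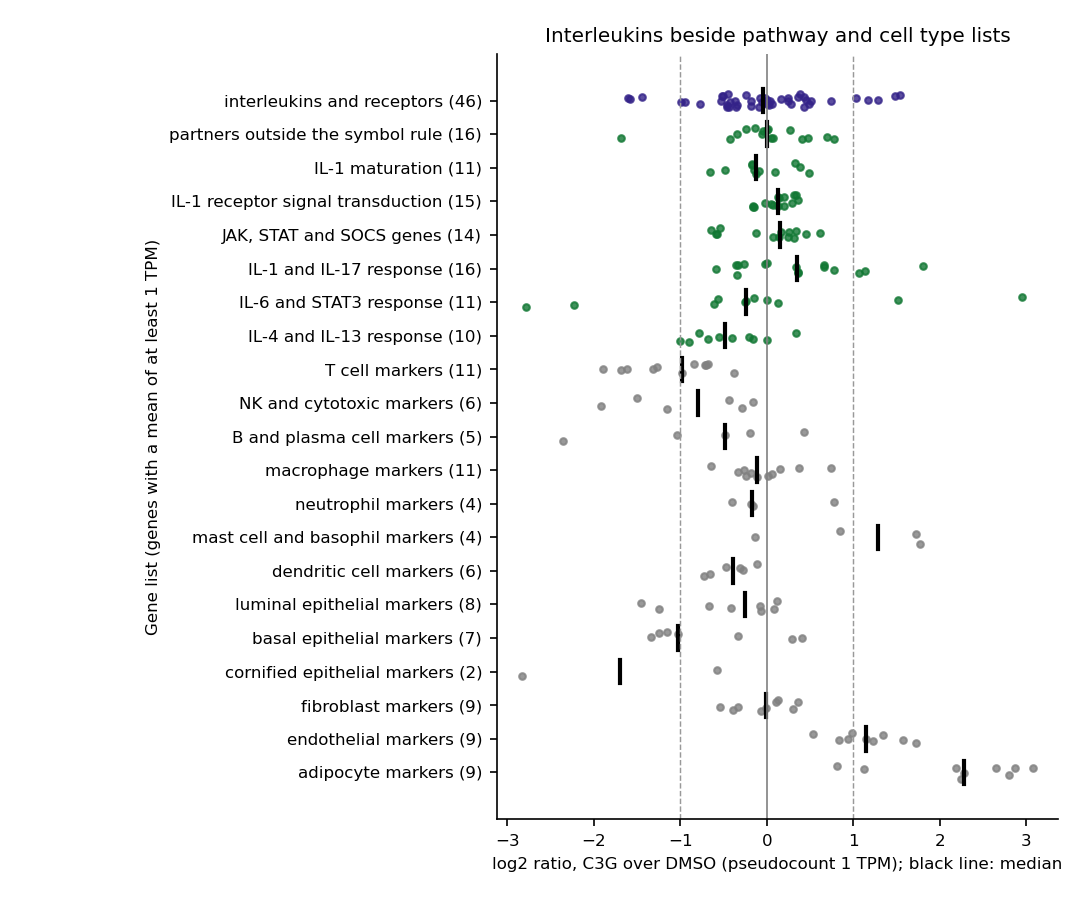
Log2 ratio (C3G over DMSO) of each gene with a mean of at least 1 TPM in the interleukin set, 7 pathway lists and 13 cell type marker lists; black lines are medians and dashed lines mark -1 and 1. Interleukins lie on both sides of 0, T cell markers all lie below 0, and endothelial and adipocyte markers all lie above.

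Markers of other cells that can hold these transcripts differed between the tumors as follows. Macrophages are a known source of Il1b, Il6 and Il23a, and their markers summed to 2086 TPM under DMSO and 1916 TPM under C3G, with 5 of 11 above 0 and none at 0. Neutrophil markers summed to 858 and 682 TPM, most of it Ltf, which epithelium makes as well, and the defining genes Elane, Ly6g and Retnlg had no read. S100a8, a calcium-binding protein of neutrophils, went the other way, at 28.9 and 50.3 TPM (1.74-fold higher, 1.34 to 2.27), and Mmp8 had 5 and 20 reads. Of the 4 measured neutrophil markers, 1 (S100a8) was above 0 and 3 were below. S100a9 had 3 reads in each library, and Csf3r stood at 5.11 and 4.49 TPM, within counting error. Mast cell and basophil markers summed to 7.27 and 21.1 TPM, with 3 of 4 measured markers above 0. Mcpt4 (1.46 and 7.39 TPM, 7 and 45 reads) and Tpsb2 (1.30 and 6.62 TPM, 9 and 58 reads) were higher by size. Cpa3 did not go with them, at 1.82 and 1.56 TPM from 12 and 13 reads. Fcer1a, Mcpt8, Ms4a2 and Tpsab1 were at 0 in both. Endothelial markers summed to 37.5 and 95.8 TPM, and adipocyte markers to 234 and 1360 TPM. Basal epithelial markers summed to 1123 and 566 TPM, with the contractile genes Acta2, Cnn1, Myh11 and Mylk lower by size. The basal keratin Krt5 (36.2 and 48.4 TPM) and the basal factor Trp63 (11.9 and 14.9 TPM) were higher, with intervals above 1. Luminal markers summed to 7688 and 5648 TPM, with Krt19 and Foxa1 lower by size, Krt8 and Krt18 lower by less, and Epcam standing at 1484 and 1399 TPM, Cdh1 at 353 and 336 TPM, Elf5 at 222 and 235 TPM and Cldn4 at 217 and 237 TPM. The part of these cells in the values of Il1b, Il6, Il12a, Il23a, Il20rb and Il17b was not tested. Nor was their part in the values of the response genes, Hp, Orm1 and Saa3 among them.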

How the data were processed

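RNA was measured in 1 mammary tumor library per group. Per the labels' protocols, RNeasy Plus kits were used for extraction and a TruSeq RNA v2 kit, which does not mark strand, for sequencing libraries. Per the submitters' processing notes, Trimmomatic 0.38, featureCounts 2.0.0, FastQC and MultiQC were run and the build was mm10; the aligner is not given in the sources used here. The authors deposited TPM values for 55536 Ensembl genes, each column summing to 1000000 TPM.

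All 55536 identifiers matched GENCODE M21. Multiplied by exon-union length, 100% of TPM values above 0 fell within 0.01 of a whole number of steps, and 1 step was taken as 1 read. The precision follows from these reads: folds are plain TPM ratios with exact conditional (Clopper-Pearson) 95% intervals, which cover counting error only. Log2 ratios used a pseudocount of 1 TPM, which understates changes of low genes. List medians used genes with a mean of at least 1 TPM. Calls by size and intervals were tried on simulated counts with counting error only, with known folds set in genes with a mean of at least 10 TPM. Differences between tumors were not simulated. The simulation therefore does not show how calls or intervals do for such differences or for changes in genes at lower levels. No count test was run, because no group has replicates.

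Members reaching 1 TPM could be named, with folds for those reaching 5 TPM, and of each of 20 lists up to 4 genes that reached 5 TPM with the largest log2 ratios in size. Members under 1 TPM were named where they had no read or pair with a named gene. Il6's fold, Il4i1, list genes at 0, list genes that go against their list, further list genes given for balance and the choice of promoters fall outside this rule. They were chosen after values were seen. The members and lists were chosen with earlier results of these data known. Promoters are from RefSeq (GRCm38.p6). Python 3.11.15, numpy 2.4.6, pandas 2.3.3 and scipy 1.17.1 were used. Alternatives were pseudocounts of 0.1 and 5, no filter on low values, a stricter filter (20 TPM for calls, a mean of 5 TPM for medians), centring, rescaling without mitochondrial and the 50 most abundant genes, and a minimum of 50 reads; removal of the length trend, in 8 length classes, was added after seeing the data.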

Additional observations from a re-analysis of the deposited data

How the results depend on the processing

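The 3 members called higher became 0 with a pseudocount of 5 TPM, 1 (Il20rb) with the stricter filter, and 5 both with no filter and after rescaling, where Il6 and Il12a joined. The 2 called lower became 1 (Il17b) with a pseudocount of 5 and with the stricter filter. Il1b had a log2 ratio of 0.86 with a pseudocount of 5, and it was called under the other alternatives that could test it; the stricter filter left it out, as it did not reach 20 TPM. The median of the members ranged from -0.18 (length trend removed) to -0.03 (pseudocount of 5), against -0.04. No called member changed sign under any alternative. Over all genes, calls numbered 179 higher and 309 lower with a pseudocount of 5, 1086 and 1218 with no filter, 109 and 241 with the stricter filter, and 218 and 312 with at least 50 reads. Family medians near 0 changed sign with scaling: the gp130 family went from 0.03 to -0.09 after centring. The IL-10, IL-12 and common gamma chain medians kept theirs under each alternative. The IL-12 median rested on only 2 genes, and it went from 1.38 to 0.086 with no filter on low values, where 5 genes counted. Depth limits the genes with few reads: Il2, Il10, Il12a and Il12b, among others, rest on fewer than 50 reads each over both libraries. No paired analysis was possible because each group has 1 library.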

Other observations

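Cytokines and receptors of the same families whose symbols do not start with Il were read as a list of 17 genes, of which 16 were measured, 8 above and 8 below 0, with a median log2 ratio of 0.01. Csf2ra, the private receptor chain of the growth factor GM-CSF, stood at 79.2 TPM under DMSO and 24.0 TPM under C3G, from 986 and 378 reads, 3.31-fold lower (2.93 to 3.73), and was the only one called by size. Csf2rb, the common beta chain that it shares with the receptors of interleukins 3 and 5, stood at 5.64 and 9.78 TPM (1.73-fold higher, 1.45 to 2.08), so the chains of 1 receptor differed in opposite directions. The ligand Csf2 had no read in either library. Lifr, a receptor chain that pairs with gp130, stood at 14.1 and 19.1 TPM, and its ligand Lif at 6.47 and 4.56 TPM.

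The remaining marker lists gave these values. B and plasma cell markers summed to 125 TPM under DMSO and 61.0 TPM under C3G. Of these Igkc held 65.5 and 12.0 TPM, and Ighm 50.3 and 43.9 TPM with an interval that held 1. Cd22, at 0.732 and 1.34 TPM, was the only 1 of 5 measured markers above 0. Dendritic cell markers summed to 38.2 and 29.8 TPM, and fibroblast markers to 1557 and 1286 TPM. Cornified epithelial markers summed to 40.9 and 11.6 TPM, of which Sprr1a held 31.8 and 3.61 TPM, with Dsg1a and Sprr3 at 0 in both.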
